A study of Drosophila melanogaster with 2 samples.

Results

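Internal promoter peaks were sites where Snail-eGFP chromatin immunoprecipitation gave a peak at a downstream, alternative start of a protein-coding gene and at no gene's first start. A peak of the pooled list belonged to this class if its summit lay within 500 bp of a transcript start that was more than 1000 bp downstream of the gene's 5'-most start. The summit also had to lie more than 500 bp from the 5'-most start of every annotated gene. Of 4221 peaks on the 6 main chromosome arms (4222 in all), 295 met this rule, and they lay at 257 start positions of 231 genes. Within that list the rule used positions and no measured value. Every peak of the list had first passed the authors' threshold for reproducible peaks, so signal and replication could vary only within that limit. They were set beside the 3015 peaks at the first start of a coding gene, called first promoter peaks here, and the 712 peaks away from these starts. The remaining 199 peaks lay at the first start of other genes only.

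The study mapped one protein in 1 group of 2 biological replicates. Whole Drosophila melanogaster embryos of the strain sna-GFP, collected over 0 to 24 h, carried a transgene for a fusion of Snail with eGFP, and both replicates share that genotype. Sonication gave fragments of roughly 200 to 800 bp, and the immunoprecipitation used an anti-GFP antibody, although the labels' antibody entry reads sna. The collection mixes all tissues and stages of embryogenesis, the share of cells that carried the fusion protein was not measured, and the control experiment that the labels name was not analysed here. With 1 group, no comparison between conditions was possible. The comparisons below are between classes of peaks in the same lists, as counts, medians and 95% Wilson intervals, which cover counting error only. No test was run between classes, because peaks of 1 list are not replicates.

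Many fly genes have several promoters. A downstream promoter usually lies in an intron of the transcript made from the first one, and it can give a messenger RNA with another 5' end, in some genes a protein with another N terminus, and often its own pattern in time and tissue. Snail is a zinc finger protein of the early mesoderm that binds the E-box CAGGTG and represses transcription together with the corepressor CtBP. Other proteins are known for short sequences at fly promoters: GAGA factor, the product of Trl, binds GAGAG and opens chromatin; BEAF-32 binds CGATA; and DREF binds the longer element TATCGATA.

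The promoters under the strongest internal peaks show both of the frequent sequence types. The 100 bases that end just before the internal start are given for the 8 of highest signal among the 12 strongest members, without mip120 and slv, whose sequences are not shown here. Of the 12, milt and heph came after these 8 and are shown further on around GAGAG. Sequences are from NCBI's copy of the Release 6 (dm6) assembly and are written 5' to 3' on the gene's strand. Capitals mark 3 motifs on either strand. The first is CGATA, which appears on the other strand as TATCG. The second is GAGAG, with CTCTC on the other strand, and the last is the E-box CAGGTG.
Eno, chr2L:1727718-1727817, minus strand: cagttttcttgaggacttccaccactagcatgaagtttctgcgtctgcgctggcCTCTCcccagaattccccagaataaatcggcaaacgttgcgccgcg
CrebB, chrX:18370884-18370983, plus strand: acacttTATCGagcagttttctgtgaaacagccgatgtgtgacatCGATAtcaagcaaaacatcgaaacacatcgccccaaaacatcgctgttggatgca
jigr1, chr3R:25647146-25647245, plus strand: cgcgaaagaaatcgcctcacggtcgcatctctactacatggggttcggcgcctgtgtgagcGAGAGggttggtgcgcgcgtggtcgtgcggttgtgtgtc
aux, chr3R:4220886-4220985, plus strand: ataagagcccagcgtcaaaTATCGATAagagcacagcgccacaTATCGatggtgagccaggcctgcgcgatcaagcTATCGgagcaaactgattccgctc
drn, chr3R:9341767-9341866, plus strand: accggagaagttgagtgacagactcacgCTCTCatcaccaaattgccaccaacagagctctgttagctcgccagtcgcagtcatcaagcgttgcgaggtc
raskol, chrX:17738313-17738412, plus strand: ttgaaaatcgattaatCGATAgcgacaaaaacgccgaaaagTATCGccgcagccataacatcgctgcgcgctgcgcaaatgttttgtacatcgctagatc
CG5004, chrX:17125363-17125462, plus strand: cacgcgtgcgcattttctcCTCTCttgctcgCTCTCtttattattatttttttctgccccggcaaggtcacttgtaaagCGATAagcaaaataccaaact
kug, chr3L:20006484-20006583, plus strand: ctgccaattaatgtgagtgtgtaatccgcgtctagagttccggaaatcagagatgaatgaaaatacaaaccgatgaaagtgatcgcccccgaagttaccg
CGATA stands in the windows of CrebB, aux, raskol and CG5004, and GAGAG in those of Eno, jigr1, drn and CG5004. These windows are set by the start and not by the summit. Within 100 bp of their summits, these peaks of Eno, jigr1 and drn held no GAGAG, whereas that of CG5004 did. The kug window holds none of the 3 motifs, and CAGGTG stands in none of the 8. In the same window of 100 bases, GAGAG was found at 120 of 284 internal starts with an internal promoter peak (42.3%, interval 36.6 to 48.1), at 21.8% of 2447 internal starts with none and at 13.2% of the first starts of 13945 coding genes. CGATA was found at 22.9% of internal starts with a peak, at 13.6% of those with none and at 28.3% of first starts. CAGGTG was found at 3.17%, 3.23% and 3.43% of these 3 sets. A match of letters is a description and not a binding site.

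The bases around GAGAG show single matches and runs. The match nearest the summit is shown, with 30 bases on each side of its middle base, for 8 of the strongest members with GAGAG within 100 bp of the summit and no UTR in the window. They were picked after the values were seen. Capitals mark GAGAG and CGATA on either strand, runs included.
CG5004, chrX:17125289-17125349, plus strand: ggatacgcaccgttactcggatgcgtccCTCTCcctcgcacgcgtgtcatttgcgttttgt
kug, chr3L:20006394-20006454, plus strand: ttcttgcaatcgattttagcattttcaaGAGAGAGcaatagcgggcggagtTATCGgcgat
milt, chr2L:7049153-7049213, plus strand: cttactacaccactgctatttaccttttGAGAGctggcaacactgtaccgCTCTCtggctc
heph, chr3R:31985852-31985912, minus strand: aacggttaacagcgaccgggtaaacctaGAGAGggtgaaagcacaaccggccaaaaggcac
CG13917, chr3L:1586546-1586606, plus strand: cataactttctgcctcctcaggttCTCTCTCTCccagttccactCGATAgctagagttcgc
Mob2, chr3L:11553396-11553456, minus strand: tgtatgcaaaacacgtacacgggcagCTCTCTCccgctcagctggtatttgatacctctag
Jupiter, chr3R:11604851-11604911, minus strand: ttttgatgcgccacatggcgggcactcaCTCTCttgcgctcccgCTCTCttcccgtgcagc
jigr1, chr3R:25648054-25648114, plus strand: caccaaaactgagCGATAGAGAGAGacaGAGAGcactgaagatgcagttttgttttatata
In heph, a regulator of splicing, and in CG5004 the window holds a single match. In milt, an adaptor that carries mitochondria along axons, it holds GAGAG and CTCTC at separate places. The jigr1 window is at the weaker of that gene's 2 internal promoter peaks, and not at the peak whose promoter is shown above. There the match stands alone, with a run of alternating bases a few bases before it. In kug, CG13917 and Mob2 the match is part of a longer run of alternating bases, where overlapping copies of GAGAG or CTCTC share letters.

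Summits of internal promoter peaks lay upstream of their start more often than not. The median offset was -80 bp, with quartiles of -184 and 22.5 bp, against a median of -20 bp at first promoter peaks, with quartiles of -85.5 and 67.5 bp. In all, 209 of 295 internal promoter summits (70.8%, interval 65.4 to 75.7) were upstream of the start, against 59.1% of first promoter summits. Within 100 bp of the start lay 117 internal promoter summits (39.7%), against 58.6% of first promoter summits. Median signal was 106.4 for the 98 members 100 to 250 bp upstream and 98.4 for the 117 members within 100 bp. It was 86.5 for the 40 members farther upstream and 78.5 for the 40 more than 100 bp downstream.

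**Figure D1:**
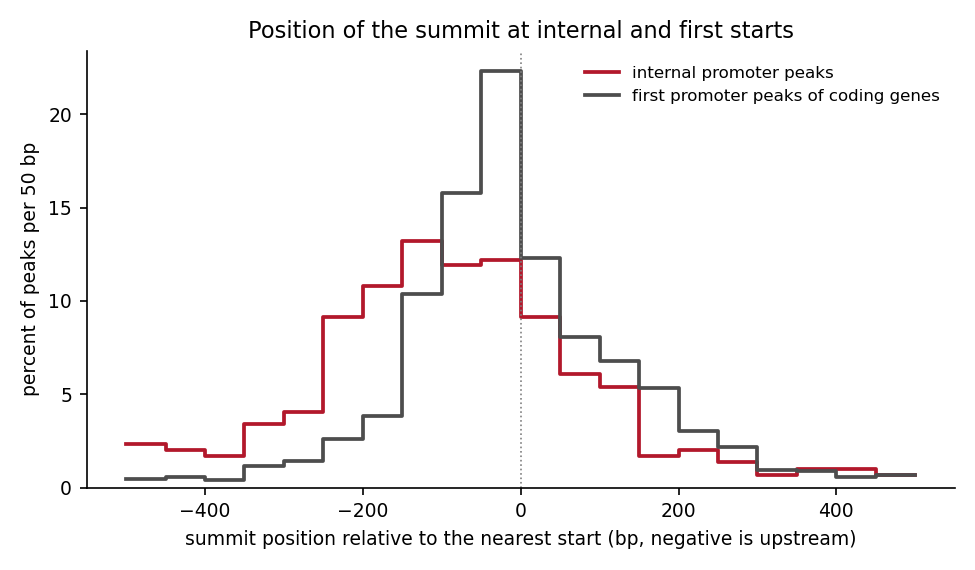
Position of the summit relative to the nearest start (x axis, bp, negative upstream) as the percent of peaks per 50 bp (y axis), for the 295 internal promoter peaks and the 3015 first promoter peaks. The internal class is broad with a median of -80 bp, and the first promoter class has a narrow maximum just upstream of the start with a median of -20 bp.

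The internal starts with a peak lay deep in long genes. The nearest internal start was a median of 8283 bp from the first start, with quartiles of 2331 and 22089 bp, and at 41.2% of the gene's length. The farthest was in kirre, a cell adhesion protein of muscle fusion, 359166 bp from its first start. Internal starts with no internal promoter peak, called internal starts with no peak here, were a median of 5008 bp from theirs. A peak of another class can still lie within 500 bp of such a start. In 267 cases (90.5%) the start lay in an intron of the longest transcript from the first start, and in 131 (44.4%) in its first intron, against 90.7% and 47.5% of internal starts with no peak. A further 22 starts lay in a 5' UTR of that transcript and 4 in a coding exon, among them the start in Eno. Transcripts from the internal start used another start codon in 151 cases (51.2%, interval 45.5 to 56.8), against 54.3% for internal starts with no peak. Genes with an internal promoter peak were 22271 bp long at the median, against 11514 bp for all 1752 coding genes with an internal start. Of the summits themselves, 196 lay in introns, 86 in 5' UTRs, 12 in coding exons and 1 in a 3' UTR.

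By arm, 46 members were on 2L, 69 on 2R, 66 on 3L, 69 on 3R and 41 on X, which made 5.74% to 7.96% of the peaks of these arms. Chromosome 4 had 4 members among its 17 peaks (23.5%), a pair each in Asator and in ey, the eyeless gene of eye development. At the edges of the rule, HnRNP-K was just inside with a summit 499 bp from its start and a signal of 79.3, and tou was just outside at 506 bp with 77.4. For the distance between starts, CG6923 was just inside at 1004 bp with a signal of 93.2, and Cpr just outside at 989 bp with 66.6.

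Signal was lower at internal promoters than at first promoters, in the pooled list and in each replicate. The signal is the authors' enrichment value per peak, on a scale the labels do not state, so values are compared within a list, and no file gives read counts, so the depth is unknown. In the pooled list the median was 97.1 for internal promoter peaks, with quartiles of 75.4 and 123.3, against 121.9 for first promoter peaks, with quartiles of 83.7 and 203.1. Peaks away from these starts had a median of 87.1. Internal promoter peaks ran from 2.95 to 528.6. Above the median of the whole list lay 109 of them (36.9%, interval 31.6 to 42.6), against 58.1% of first promoter peaks and 50% of all peaks by construction. In the strongest 10% of the list were 14 of them (4.75%), against 13% of first promoter peaks. In the candidate list of each replicate, the strongest candidate within 250 bp of the pooled summit was taken. Medians in replicate 1 were 56.0 at internal promoter peaks and 79.8 at first promoter peaks. Medians in replicate 2 were 49.1 at internal promoter peaks and 60.1 at first promoter peaks. Candidates were missing for 4 members in replicate 1 and 5 in replicate 2.

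The lower signal went with fewer peaks found in both replicates. Of the 295 members, 89 overlapped a peak of both replicates' own thresholded lists (30.2%, interval 25.2 to 35.6), against 52.8% of first promoter peaks, 16.6% of peaks away from starts and 44.4% of all peaks. In neither list were 114 members (38.6%, interval 33.3 to 44.3), against 19.5% of first promoter peaks and 26.0% of all peaks. The list made from the pair of replicates held 236 members (80%), against 86.1% of first promoter peaks and 82.0% of all peaks. The members in both lists had a median signal of 148.8, those in 1 list 104.0 and those in neither 80.1.

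The whole list was cut into 4 equal bins of signal. In bin 4, the strongest, all 27 members were in both replicates' lists, against 96.6% of 958 first promoter peaks. In bin 3, 45.1% of 82 members were, against 51.3% of first promoter peaks. In bin 2, 12.1% of 99 members were (interval 7.07 to 20.0), against 13.9% of first promoter peaks. In bin 1, the weakest, 14.9% of 87 members were (interval 8.95 to 23.9), against 27.0% of first promoter peaks (interval 23.7 to 30.5). Among the members, 45 (15.3%) overlapped a stronger pooled peak, nearly the 15.2% of first promoter peaks that did so, and the replicate value of such a shoulder can be that of its neighbour. Candidate signals of the 2 replicates had a Spearman correlation of 0.520 and, on log10 values, Pearson's r 0.627 over 287 members. Over 2931 first promoter peaks the Spearman correlation was 0.789 and r 0.784. These points share the same 2 libraries, and the correlations are descriptions.

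**Figure D2:**
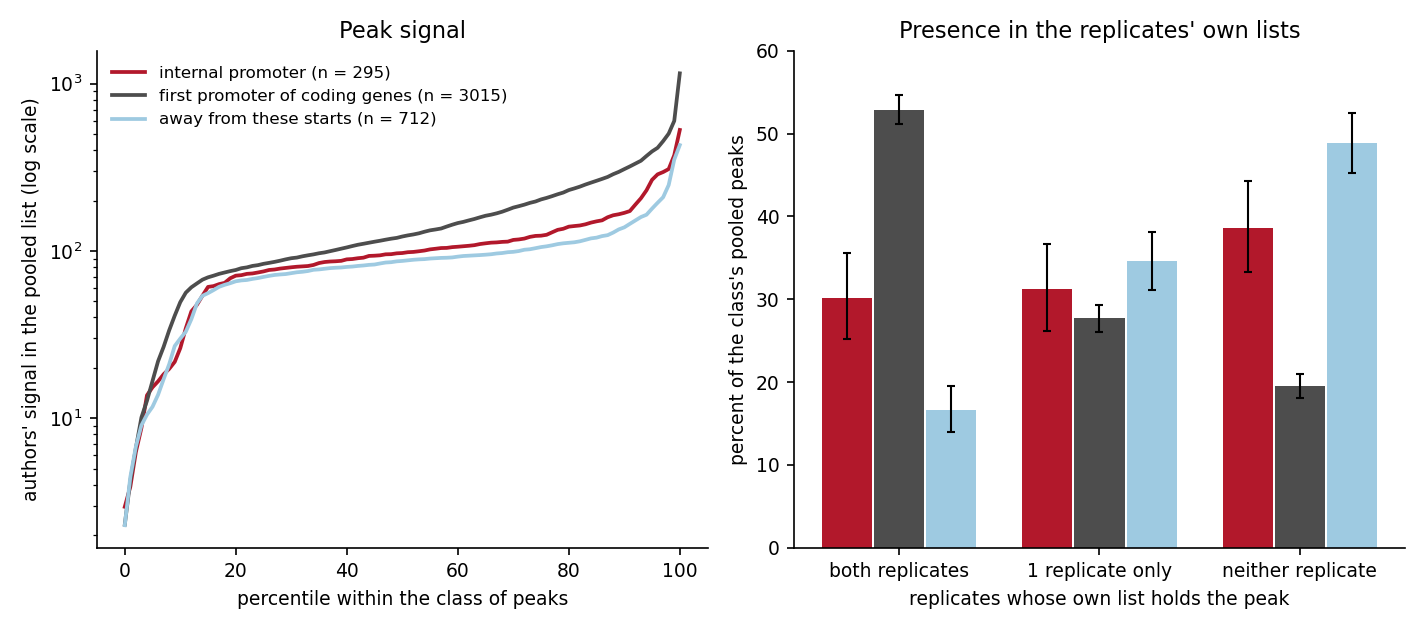
Left: the authors' signal in the pooled list (y axis, log scale) at each percentile of a class (x axis), for internal promoter peaks, first promoter peaks of coding genes and peaks away from these starts. Right: the percent of each class found in both, 1 or neither of the replicates' own lists, with 95% Wilson intervals as error bars. The internal curve runs below the first promoter curve over most percentiles, and 30.2% of internal promoter peaks were in both lists, against 52.8% of first promoter peaks.

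Each of the 12 strongest members was in both replicates' lists. Eno, the glycolytic enzyme enolase, had the highest signal of the class at 528.6, with 293.0 in replicate 1 and 228.8 in replicate 2. CrebB, a factor that answers to cAMP, had 456.4, with 238.0 and 211.2 in the replicates. These were the strongest members in the pooled list, and the order of the first pair held in both replicates. For jigr1, a predicted DNA-binding protein, the signal was 373.7, with 216.8 in replicate 1 and 140.5 in replicate 2. For aux, the auxilin that strips clathrin from vesicles, it was 373.0, with 231.5 in replicate 1 and 151.5 in replicate 2. The pooled list put jigr1 and aux side by side, and both replicates put aux above jigr1. The drn peak had 341.3, with 204.3 in replicate 1 and 152.8 in replicate 2. The peak of mip120, a subunit of the Myb-MuvB complex, had 318.3, with 176.7 in replicate 1 and 153.2 in replicate 2. Next came raskol, a GTPase-activating protein for Ras, with 307.2 and replicate values of 168.7 and 152.4.

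The last 5 of the 12 lay close together, between 287.0 and 296.8. The slv peak, at a sugar transporter gene, had 296.8, and that of CG5004 had 296.7. That of kug, the atypical cadherin Fat2, had 296.0, that of milt 291.6 and that of heph, the polypyrimidine tract binding protein, 287.0. Their order is not firm, because replicate 1 gave them 166.1 to 186.8 and replicate 2 gave them 97.9 to 142.2, with slv highest in replicate 1 and CG5004 highest in replicate 2. Of the 12 starts, those of Eno, mip120, raskol, CG5004 and milt used another start codon than the transcripts of the first start.

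Most of the 231 genes had 1 internal promoter peak. There were 175 with 1, 50 with 2, 5 with 3 and 1 with 5. SNF4Agamma, the regulatory gamma subunit of AMP-activated kinase, had 5 peaks at 4 of its 10 internal starts, with signals of 159.5, 107.2, 87.4, 78.3 and 26.0, the weakest of them a shoulder of a neighbour. PAN3, a subunit of a deadenylase, had 280.7 and 88.3, and a shoulder of 3.51 beside the first. The drn gene had 341.3 and 61.9 at separate starts and a shoulder of 20.0. ITP, the ion transport peptide of hormonal water balance, had 109.8, 68.6 and a shoulder of 23.4. The splicing regulator ps had 108.8, 74.9 and a shoulder of 20.4, and btsz, a synaptotagmin-like protein, 104.2, 102.7 and a shoulder of 15.5. In each of these 6 genes at least 1 of the peaks was a shoulder, so the number of peaks is above the number of separate sites. Merging overlapping peaks left 255 sites with a member, of 3591 in all.

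Snail's own E-box was at internal promoter summits at a share near that of all peaks, whereas GAGAG was in most members and CGATA in fewer of them than of first promoter peaks. CAGGTG lay within 100 bp of the summit, on either strand, in 18 of 295 members (6.10%, interval 3.89 to 9.44), against 6.30% of first promoter peaks, 7.30% of peaks away from starts and 6.44% of all peaks. With windows centred on the start, CAGGTG was at 10 of 284 internal starts with a peak (3.52%, interval 1.92 to 6.36), at 6.70% of internal starts with none (interval 5.78 to 7.76) and at 6.57% of all coding first starts. The median signal of the 18 members with CAGGTG was 87.0, and that of the other 277 was 98.3. In both replicates' lists were 3 of the 18, beside 89 of all 295 members (30.2%). CAGGTG was in 3.37% of those 89 (interval 1.15 to 9.45) and in 7.02% of the 114 members in neither list (interval 3.60 to 13.2). The E-boxes are shown for 6 of the strongest members with this E-box and no UTR at the site, with capitals for CAGGTG or, on the other strand, CACCTG. They were picked after the values were seen.
CG43736, chrX:6875885-6875914, plus strand: attgactatcgcCACCTGgttttctctcca
Pvf3, chr2L:7134205-7134234, minus strand: gcaacatgctgcCAGGTGctgctgcaccac
chrb, chr3L:11493622-11493651, plus strand: agctgttgttgcCAGGTGatttcccccgac
CG3625, chr2L:285553-285582, minus strand: aggaccctgctcCACCTGacggcagtcgtg
siz, chr3L:21058738-21058767, plus strand: tttccacgcataCACCTGcatttcccgccc
Nost, chrX:9042480-9042509, plus strand: agagagtgagaaCAGGTGcagcatccatgc
Their pooled signals were 122.7 for CG43736, 106.4 for Pvf3, a ligand of the fly PDGF and VEGF receptor, 105.2 for chrb, an inhibitor of TOR signalling, 82.7 for CG3625, 78.6 for siz, an exchange factor for Arf GTPases, and 75.3 for Nost. The related Zelda element CAGGTAG was in 0.678% of members, against 0.924% of all peaks. The symmetric E-box CAGCTG, which reads the same on both strands, was in 63 members (21.4%, interval 17.1 to 26.4), against 18.1% of first promoter peaks, 11.5% of peaks away from starts and 16.7% of all peaks. With windows centred on the start, CAGCTG was at 18.0% of internal starts with a peak (interval 13.9 to 22.8) and at 9.40% of internal starts with none (interval 8.31 to 10.6).

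GAGAG was the motif on which internal and first promoter peaks were farthest apart in percentage points among the 9 searched. As a ratio, TATCGATA differed more. GAGAG was within 100 bp of the summit in 184 members (62.4%, interval 56.7 to 67.7), against 627 first promoter peaks (20.8%, interval 19.4 to 22.3), 48.7% of peaks away from starts and 29.2% of all peaks. Windows centred on the start held GAGAG at 158 of 284 internal starts with a peak (55.6%, interval 49.8 to 61.3) and at 31.8% of internal starts with none (interval 30 to 33.7). CGATA ran the other way. It was in 98 members (33.2%, interval 28.1 to 38.8), against 65.1% of first promoter peaks, 28.8% of peaks away from starts and 55.1% of all peaks. TATCGATA, which contains CGATA on both strands and is its own reverse complement, was in 17 members (5.76%), against 22.6% of first promoter peaks and 17.7% of all peaks. At the start itself, TATCGATA was at 4.58% of internal starts with a peak and at 0.531% of those with none.

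The remaining promoter motifs differed less in percentage points, though not all of them as ratios. The initiator core TCAGT was in 34.9% of members, against 29.6% of first promoter peaks, 24.6% of peaks away from starts and 29.2% of all peaks. With windows centred on the start, TCAGT was at 46.5% of internal starts with an internal promoter peak and at 49.8% of those with none. The TATA box TATAAA was in 12.2% of members, against 24.7% of first promoter peaks, 15.9% of peaks away from starts and 22.2% of all peaks. GGTCACAC, the element known as Ohler motif 1, was in 2.71% of members, against 6.47% of first promoter peaks, 0.843% of peaks away from starts and 5.0% of all peaks. Bases around internal promoter summits were also richer in G and C, with a median of 48.8%, against 39.8% at first promoter peaks, 48.3% at peaks away from starts and 45.3% at internal starts with no peak.

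The GAGAG difference between members and first promoter peaks was present at each level of base composition and of signal. In windows under 40% G and C, GAGAG was in 39.7% of 58 members, against 12.5% of first promoter peaks. In windows of 40 to 50% it was in 55.6% of 108 members, against 22.0%, and in windows of 50% or more in 78.3% of 129 members, against 43.9%. By bin of signal, from weakest to strongest, GAGAG was in 60.9%, 68.7%, 64.6% and 37.0% of members. In the same bins it was in 26.2%, 26.6%, 19.4% and 14.5% of first promoter peaks. Peaks away from starts lay between members and first promoter peaks in each bin of signal, at 44.1%, 51.8%, 57.5% and 32.5%. They also lay between them at each level of base composition, at 28.5%, 48.8% and 58.9% from lowest to highest. CGATA shares went up with signal in both classes, with 25.3%, 27.3%, 37.8% and 66.7% of members over the 4 bins, and 35.1%, 51.0%, 71.1% and 89.7% of first promoter peaks. In the strongest bin, 18 of 27 members held CGATA and 10 held GAGAG. By base composition, CGATA was in 41.4% of members and 79.0% of first promoter peaks under 40% G and C. At 40 to 50% the shares were 33.3% and 62.2%. The CGATA difference was absent at 50% or more, with 29.5% of 129 members and 28.9% of first promoter peaks.

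Taken in combination, 135 members (45.8%) held GAGAG without CGATA, against 11.1% of first promoter peaks and 37.9% of peaks away from starts. CGATA without GAGAG was in 49 members (16.6%), against 55.4% of first promoter peaks and 18.0% of peaks away from starts. Both motifs were in 49 members and neither in 62. Median signal was 118.0 for members with CGATA alone, 102.7 with both, 96 with GAGAG alone and 89.1 with neither. The nearest CGATA lay a median of 29.5 bp from the summit and the nearest GAGAG 36.0 bp.

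**Figure D3:**
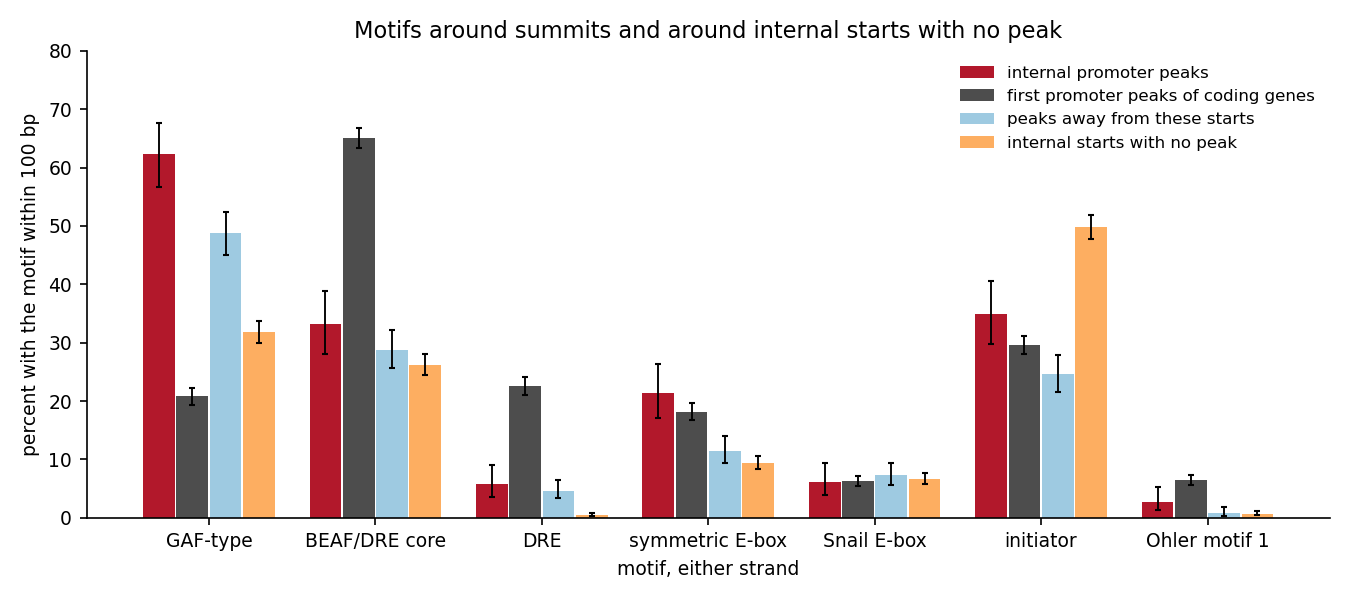
Percent of windows within 100 bp that hold each motif on either strand (y axis), with 95% Wilson intervals, around summits of internal promoter peaks, first promoter peaks and peaks away from these starts, and around internal starts with no internal promoter peak. The GAF-type bar (GAGAG) is 62.4% for internal promoter peaks and 20.8% for first promoter peaks, the bar of the BEAF/DRE core (CGATA) is 33.2% and 65.1%, and the Snail E-box bars are alike.

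Internal and first promoters could be set side by side within genes. A first-start peak was any pooled peak within 500 bp of the first start, so genes can share it. The genes fray and CG7694 share a first start and its peak of 87.9, and both are counted. For signal, the strongest internal peak of a gene was set against its strongest first-start peak. Of 13945 coding genes, 1752 (12.6%) had an internal start by this rule, and 231 of these (13.2%) held an internal promoter peak. A first-start peak was present in 82 of the 231 (35.5%, interval 29.6 to 41.9), in 436 of the 1521 genes without an internal promoter peak (28.7%, interval 26.4 to 31.0) and in 29.6% of all 1752. In the list of replicate 2 alone it was present in 18.3% of genes with an internal promoter peak, against 17.3% of those without (interval 15.5 to 19.2), and in the list of replicate 1 alone in 28.6%, against 21.0% (interval 19.1 to 23.1). The other 149 genes had an internal peak and no first-start peak. The internal peaks of these 149 genes had a median signal of 104.2, while 114 of their first starts had a candidate below the threshold, with a median of 44.0. The choice of genes with a thresholded peak at the internal start alone largely set this order, which is given as a description.

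Among the 82 genes with a peak at both starts, the internal one was more often the weaker. Its median signal was 105.4, against 133.7 at the first start, and the median ratio within genes was 0.772 (log2 -0.37, range -2.61 to 2.27). The internal peak was higher in 26 of 82 genes (31.7%, interval 22.6 to 42.4). By candidate signal it was higher in 26 of 81 genes in replicate 1 (32.1%, interval 22.9 to 42.9). In replicate 2 it was higher in 33 of 78 (42.3%, interval 32.0 to 53.4), an interval that includes an equal split. Here the strongest candidate within 500 bp of each start was taken. In 61 of 78 genes with all values, the replicates put the starts in the same order, 21 with the internal start higher in both and 40 with the first start higher in both. The internal peak was a shoulder of a stronger peak in 4 of the 82 genes.

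At the upper end of that range, CrebB had 456.4 at the internal start and 94.6 at the first, and the order was the same in both replicates, with 238.0 against 61.3 in replicate 1 and 211.2 against 44.4 in replicate 2. At the lower end, the internal peak of Ptpmeg, a tyrosine phosphatase, was a shoulder with 17.0, against 103.5 at the first start, and next to it klar, a gene of organelle positioning, had 77.2 at the internal start and 463.7 at the first. Both replicates had klar in the same order, with 42.2 against 258.1 and 45.6 against 205.2. Between these ends, in dlg1, a scaffold protein of cell polarity, the internal start had 230.8 and the first 118.2, with 137.1 against 67.6 and 94.1 against 55.0 in the replicates. PAN3 had 280.7 at the internal start and 181.5 at the first. The order was reversed in jvl, a gene of bristle shape, with 112.0 at the internal start and 534.4 at the first. CkIalpha, a kinase of Wnt and Hedgehog signalling, had 118.0 at the internal start and 442.1 at the first, and kis, a chromodomain remodeller, 134.6 and 407.4. In jvl, CkIalpha and kis each replicate gave the first start the higher value as well.

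**Figure D4:**
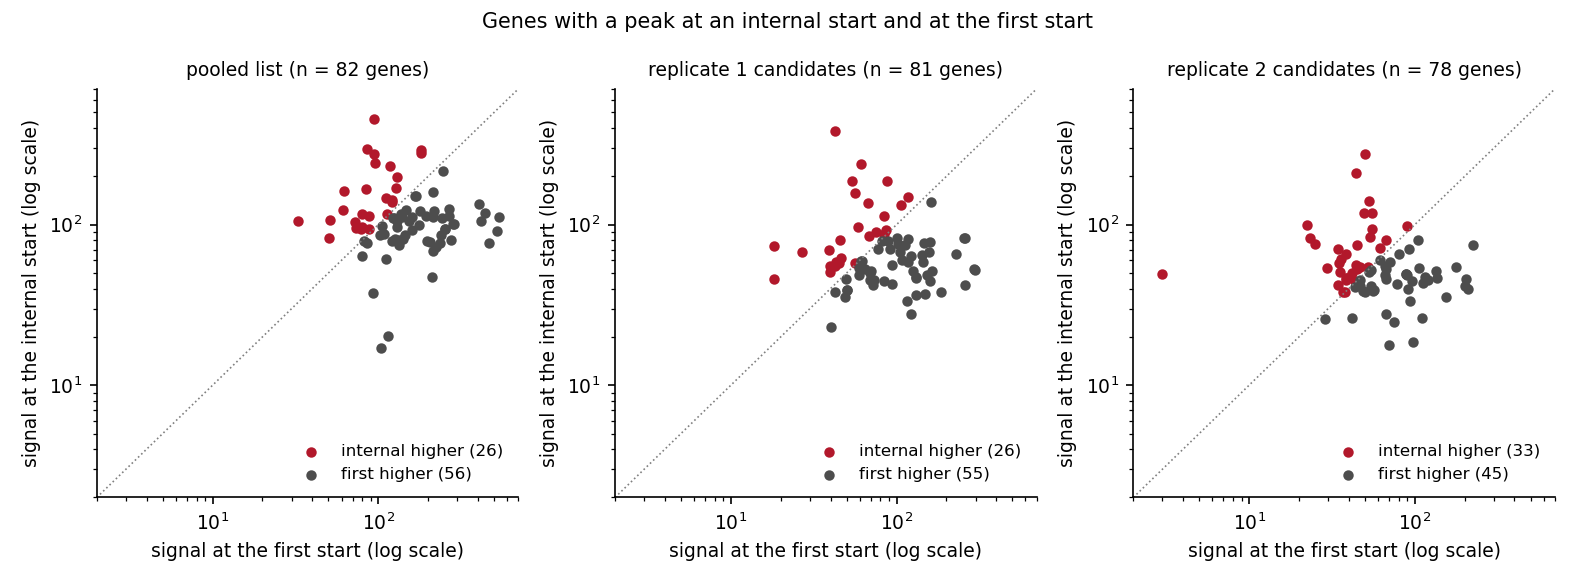
Signal at the internal start (y axis, log scale) against signal at the first start (x axis, log scale) for genes with a peak at both, 1 point per gene, in the pooled list and by each replicate's candidates. Red points have the internal start higher, grey points the first start, and the dotted line marks equal signal. The internal start was higher in 26 of 82 genes in the pooled list, 26 of 81 in replicate 1 and 33 of 78 in replicate 2.

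The largest share of genes with an internal promoter peak among the 9 lists shown was in the one of hormone response. Of 27 genes of the nuclear receptor and ecdysone list, 15 had an internal start and 7 of these an internal promoter peak (46.7%, interval 24.8 to 69.9), against 13.2% of all coding genes with an internal start. They were Eip75B, Eip74EF, ftz-f1, svp, tai, Eip78C and EcR, with a median signal of 113.4, against 105.2 over all 231 genes. The nuclear receptor gene Eip75B had 169.1, with 84.6 in replicate 1 and 70.2 in replicate 2, and was in both lists. The gene of the ETS factor Eip74EF had 128.6, with 65.0 and 56.5 in the replicates, and was in the list of replicate 1. EcR, the ecdysone receptor, had 96 and 84.8 at separate starts, and replicate 1 alone listed them. None of these 3 genes had a first-start peak, and their first-start candidates had 41.0 for Eip75B, 68.7 for Eip74EF and 47.8 for EcR. In ftz-f1, a nuclear receptor that gives competence to respond to ecdysone, the internal start had 113.6 and the first start 194.8. No internal promoter peak was found at br, the Broad zinc finger gene of metamorphosis, whose strongest internal candidate had 39.7.

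Signalling genes followed. In the EGF receptor, Ras and JNK list, 4 of 9 genes with an internal start held an internal promoter peak (44.4%, interval 18.9 to 73.3). The Fos gene kay had 151.6 and 104.2 at separate starts, and both were in both replicates' lists. The gene pnt, an ETS factor downstream of the EGF receptor, had 141.9, with 73.1 in replicate 1 and 70.6 in replicate 2. Neither gene had a first-start peak, and their first-start candidates had 44.3 for kay and 46.2 for pnt. The Egfr gene itself had 99.5 at its internal start and 176.6 at the first, and aop, the repressor Yan, had 94.9 at its internal start.

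In the Notch, Wnt, Hedgehog and BMP list, 6 of 14 held one (42.9%, interval 21.4 to 67.4). The receptor gene tkv, a type I receptor for Dpp, had 150.2 at an internal start with a shoulder of 17.5, and 168.6 at the first start. The gene of the nuclear Dpp effector shn had 115.0 and 73.6 at separate starts and no first-start candidate. The Notch coactivator mam had 113.2 at the internal start and 265.5 at the first, but the internal peak was in neither replicate's list. The others were fz2, a Wnt receptor, with 108.0, dpp, the BMP ligand, with 93.7, and neur, a ubiquitin ligase for Notch ligands, with 61.1.

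RNA-binding proteins were a further group, with 8 of 23 (34.8%, interval 18.8 to 55.1). They were heph with 287.0, shep with 164.4, cpo with 148.8, Rbfox1 with 143.5, pum with 124.4, bru2 with 118.7, ps with 108.8 and mbl with 104.1. None (0) of the 8 had a peak at the first start, beside 35.5% of all 231 genes with an internal promoter peak and 5 of the 23 genes of the list (21.7%), and ps had a candidate of 109.8 there. In shep, a regulator of neuronal remodelling, the peak lay 93147 bp from the first start, and in cpo, a gene of the nervous system and diapause, 24274 bp. Both were in both replicates' lists, with 69.7 and 85.1 for shep and 62.3 and 86.3 for cpo.

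Adhesion and polarity genes had 5 of 14 (35.7%, interval 16.3 to 61.2). These were dlg1 with 230.8, l(2)gl, its partner in basolateral polarity, with 139.5, kirre with 73.5, the apical scaffold sdt with 64.5 and the kinase par-1 with 47.0. The peaks of kirre, sdt and par-1 were in neither replicate's list.

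The intervals of the other 4 lists shown include the 13.2% of all genes. The BTB zinc finger factors ttk with 138.0 and psq with 112.4 were 2 of 10. The kinases SNF4Agamma and CkIalpha were 2 of 13, and the chromatin genes kis with 134.6 and jing with 116.9 were 2 of 14. Of 16 ion channel and synapse genes with an internal start 0 had one, which allows a share of up to 18.8% by the limit of 3 counts, and up to 19.4% by the Wilson interval. The intervals are wide, and the part that gene length and the number of starts per gene have in these shares was not tested.

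Of the 15 genes chosen whatever their values, br and a further 6 had no internal promoter peak. The zinc finger gene lola had 3 internal starts and a strongest candidate of 96.8, close to the median of the class, but no thresholded peak. Antp, the Hox gene of the thorax, had a candidate of 52.4, and hb, the gap gene hunchback, had no candidate at its internal start. The muscle factor gene Mef2 had a candidate of 49.3 at its internal starts and a peak of 118.3 at its first start. CtBP, the corepressor, had 60.6, and sgg, the GSK3 kinase gene with 9 internal starts, had 73.8. Of these 6 genes, 5 held candidates below the threshold. The share over all internal starts with no internal promoter peak was not counted. Candidates were common elsewhere, at 114 of the 149 first starts without a peak in genes with an internal promoter peak (76.5%).

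**Figure D5:**
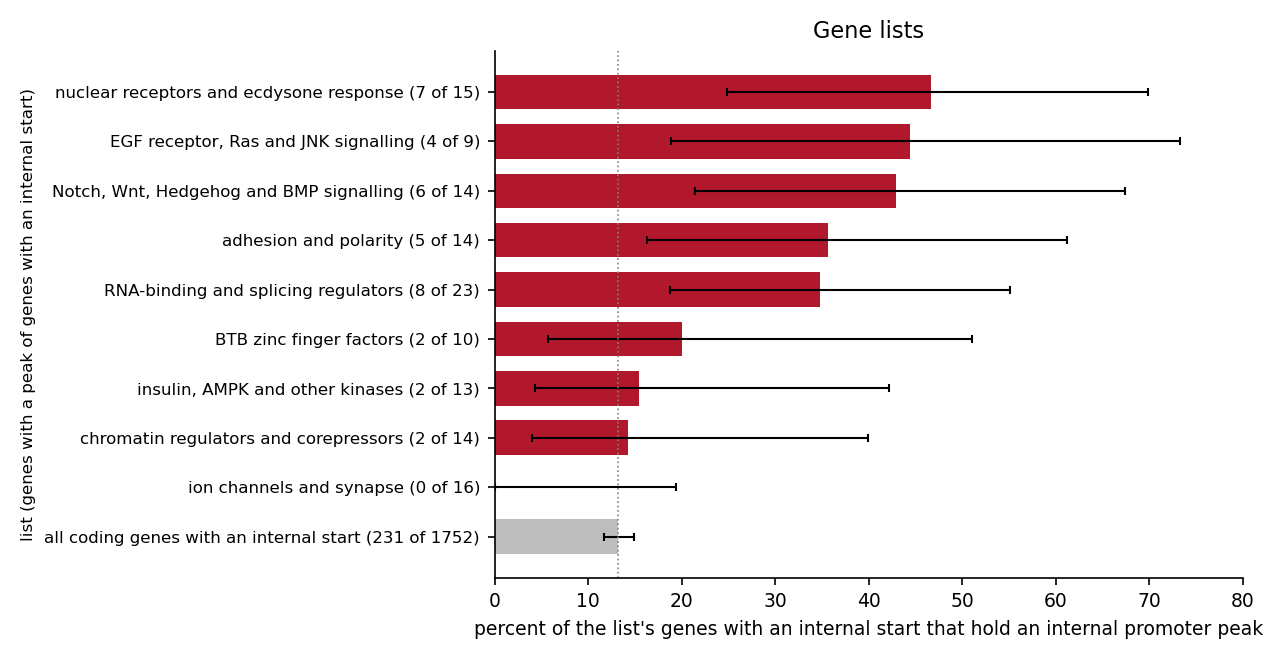
Percent of each list's genes with an internal start that hold an internal promoter peak (x axis), with 95% Wilson intervals, and both counts beside each name (y axis). The bottom bar and the dotted line give the 13.2% of all 1752 coding genes with an internal start, and the nuclear receptor and ecdysone list is at the top with 46.7%.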

How the data were processed

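Peak lists from Snail-eGFP chromatin immunoprecipitation of 2 biological replicates were used, with coordinates on dm6. The authors deposited thresholded peaks and ranked candidates for each replicate and for the pooled replicates, plus thresholded peaks of the replicate pair. The signal of a peak is the authors' deposited value. The −log10 values in the lists, which the authors deposited for significance and for the irreproducible discovery rate, were not recomputed. Aligner and peak caller: not given in the sources used here. Read counts were not among the values used, so the depth behind a peak is unknown, and the precision rests on 2 replicates.

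Peaks off the 6 main arms (1) were left out. Starts came from Ensembl release 115 gene models and sequence from the NCBI copy of Release 6. Peaks overlapped at 1 bp or more. For medians and correlations of a class, a replicate value is its strongest candidate with a summit within 250 bp of the pooled summit. For the internal and first starts of a gene, it is the strongest candidate within 500 bp of each start. A motif counted if its letters lay on either strand within 100 bp of the summit. Shares carry 95% Wilson intervals, which leave out all but counting error. They treat peaks or genes as independent, although 45 of the 295 members overlapped a stronger pooled peak and merging left 255 sites with a member. Reads without molecular identifiers are not independent molecules either. The scripts were tested on simulated data with Python 3.11.15, numpy 2.4.6, pandas 2.3.3, scipy 1.17.1 and matplotlib 3.10.9.

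Of 318 list entries, 313 matched by symbol, 2 by an older symbol, and 3 were not used. The result of 1 of the 10 lists is not reported here. Named genes are the 12 strongest members, genes with 3 or more members, up to 3 genes per list with the strongest peak, and 15 genes whatever their values. Other names, such as the remaining members of lists, genes at the edges of the rule and genes with extreme ratios, were chosen after their values were seen. The members, motifs and lists were chosen with earlier results of these data known. Alternatives were the replicate-pair list, each replicate's own list, other promoter widths and start distances, merged or stronger peaks, other overlaps and windows, and RefSeq gene models. The GAGAG share with its alternatives, the values of first promoter peaks under each alternative, and leaving transposable elements and pseudogenes out of the annotated genes were added after seeing the data.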

Additional observations from a re-analysis of the deposited data

How the results depend on the processing

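Of 9 results under up to 14 settings, 30 values moved beyond a limit set for each kind of result. The limit was a fixed fold change for the number of members and the Wilson interval for shares. For the signal ratio and the offset it was the standard deviation between the 2 replicate lists, 0.007 and 15.2 bp, so small changes of the ratio count as moved. The signal ratio stayed below 1 and the offset upstream throughout. Set against the same quantity recomputed for first promoter peaks, the share in both lists was lower in 12 of 12 alternatives, CGATA lower in 13 of 13 and GAGAG higher in 13 of 13, while CAGGTG was higher in 7 and lower in 6. The share of genes with a first-start peak was above that of genes without an internal promoter peak in 11 of 11 alternatives, by 1.01 to 9.74 percentage points. With a single replicate's own list in place of the pooled list, members numbered 130 (list of replicate 2) and 151 (list of replicate 1), and the share in both lists, then limited to peaks of that list, was 55.6% to 67.7%. The signal ratio of internal over first promoter peaks, 0.80 in the pooled list, was 0.79 to 0.80, the offset -86.0 to -64.5 bp, the share of genes with a first-start peak 18.3% to 28.6%, CGATA 39.1% to 44.6% and GAGAG 54.6% to 58.3%. Among peaks above the median signal, there were 109 members, with 58.7% in both lists, a ratio of 0.77, an offset of -109 bp, 27.9% of genes with a first-start peak, 45.0% with CGATA and 3.67% with CAGGTG. The ratio was 0.77 in the replicate-pair list and after merging overlapping peaks, 0.78 with starts beyond 500 bp counted as internal and 0.82 with a promoter width of 1000 bp. With a width of 250 bp, the offset was -61.0 bp and the share with a first-start peak 26.2%. Windows of 50 bp and 200 bp gave 21.7% and 48.5% for CGATA, 3.73% and 10.8% for CAGGTG, and 40% and 78.3% for GAGAG, as a wider window holds more letters. RefSeq gene models, and leaving out transposable elements and pseudogenes (chosen after seeing the data), gave 300 members each. The causes of the other moves were not tested. No paired analysis was possible because there is 1 group of samples.

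Depth is unknown, and with 2 replicates the order of close signals is not firm. The control experiment was not analysed here, so enrichment over it could not be checked. Whole embryos of 0 to 24 h mix cell types, so a stronger signal in few cells and a weaker one in many cannot be told apart. Annotated starts need not be used in these embryos, and use was not measured.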
